A study of Mus musculus with 9 samples.

Results

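The 33 genes described here build, move, sense or export cholesterol. They were taken as a named list of cholesterol genes, drawn up with earlier results of these arrays known and matched to the array by gene symbol, and 30 of the 33 had a probe set that names them alone. Acat2, Soat1 and Nr1h2 had no such probe set in the annotation used here, so their expression was not analysed here. The 30 measured genes are part of 18193 genes with a probe set, of which 13078 were bright enough to be tested. All 30 were among the 13078.

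The arrays come from CD11b+ splenocytes of C57BL/6 mice, cells that adhered to a dish and were then pulled out with magnetic beads against CD11b, an integrin of myeloid cells. The HighThreat group is 6 mice that met a social threat repeatedly, with 1 Affymetrix array for each mouse. The LowThreat group is 6 mice kept under non-threatening conditions, whose RNA was combined by 2 into 3 pools (1-2, 3-4 and 5-6) with 1 array for each pool. They are called threat animals and control pools here. The labels name no further treatment, allele or batch, and no age. The design asks whether expression differs between the 2 conditions. All levels are log2 expression values of 1 probe set for each gene, so levels of different genes cannot be ranked against each other, and a difference is the mean of the threat animals minus that of the control pools.

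Cells make cholesterol from acetyl-CoA through mevalonate, isoprenoid pyrophosphates, squalene and lanosterol. When sterol in the endoplasmic reticulum runs low, the carrier Scap takes SREBP transcription factors to the Golgi, where proteases free the part that switches on the enzymes of synthesis, and Insig proteins hold Scap back when sterol is plentiful. When sterol is in excess, oxysterols activate the LXR nuclear receptors, which raise the exporters Abca1 and Abcg1, the carrier apolipoprotein Apoe and the ubiquitin ligase Mylip, which lowers lipoprotein uptake. Macrophages take in much cholesterol with the cells they engulf and depend on the export side.

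In threat animals 9 of 18 measured enzymes of synthesis rose and 2 fell, and of 6 LXR and efflux genes 3 fell and 1 rose. Of the 30 genes, 12 rose (40%) and 6 fell (20%) at an adjusted p under 0.05, against 23.8% and 22.0% of all genes tested. The rises were those of the 9 enzymes, the transporter Stard4, the regulator Insig2 and the phospholipid enzyme Lpcat3. The falls were those of the exporter Abcg1, Apoe, Mylip, Scap and 2 enzymes, Ggps1 and Sc5d. Abcg1 differed most, by -0.87 (SE 0.046, a 1.83-fold lower level), and every other difference was under 1.5-fold. In 16 of the 30 genes (53.3%) all threat values lay above, or all lay below, the control values, where 41.8% of all genes tested showed this. The median difference of the 30 genes was 0.099, and that of all genes tested was 0.029.

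**Figure D1:**
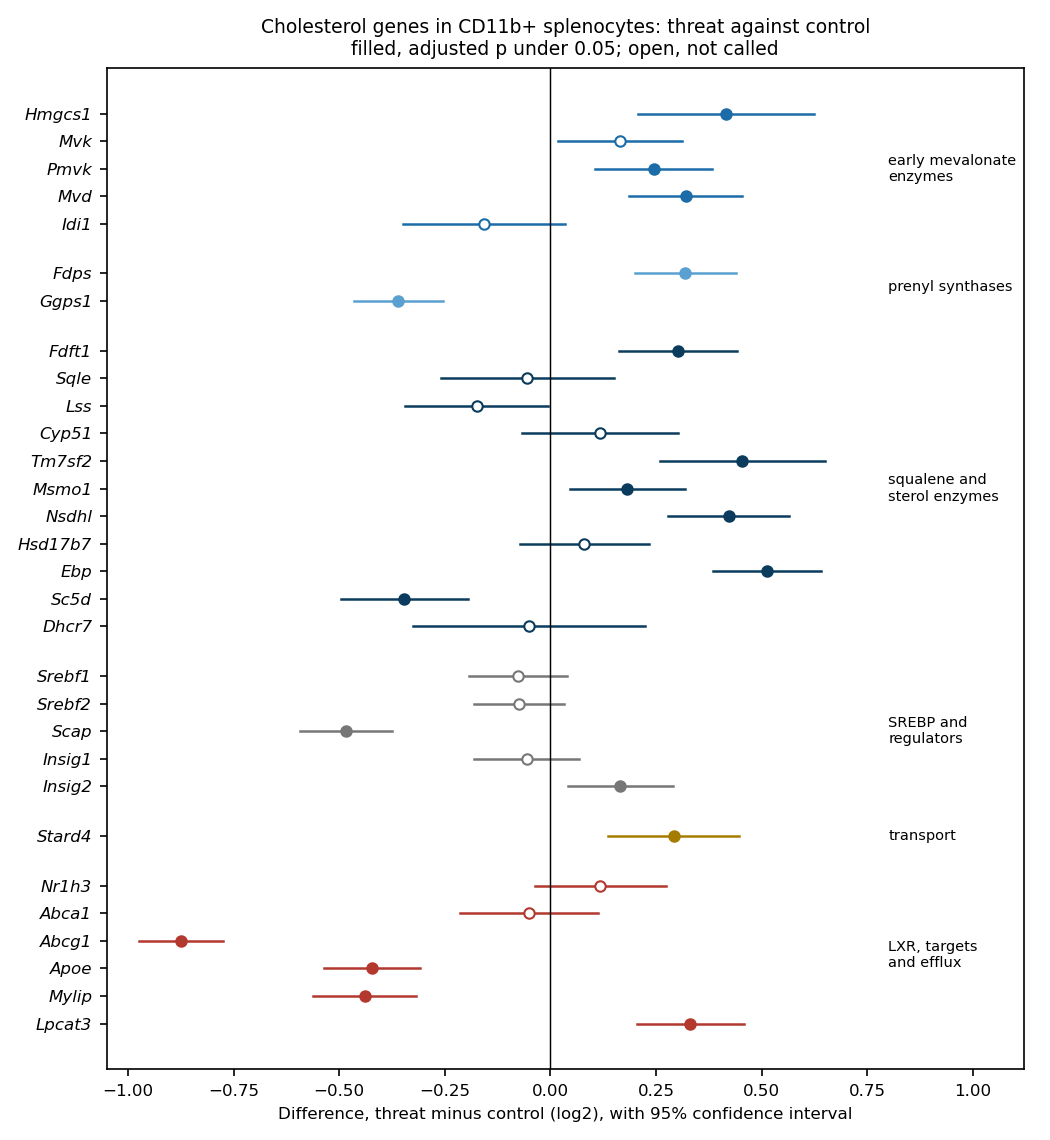
Difference between threat animals and control pools (log2, x axis) for the 30 measured genes, grouped by role, with the 95% confidence interval from limma as a line. Filled points passed an adjusted p of 0.05 and open points did not. Most filled points of the synthesis enzymes lie above 0, except Ggps1 and Sc5d, and Abcg1 lies farthest below 0 at -0.87.

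Marker genes of several cell types and cell cycle genes differed between the groups in the same arrays. Of the marker genes tested for each type, 13 of 14 of granulocytes and their precursors rose, and their mean per array ran from 8.57 to 8.72 in control pools and from 9.96 to 10.40 in threat animals. Cell cycle genes rose in 10 of 11 (4.75 to 4.91 in control, 5.57 to 6.25 in threat). Falls were found in 10 of 11 B cell genes (6.74 to 6.97 against 4.70 to 5.09), in 8 of 9 natural killer cell genes (5.58 to 5.72 against 3.90 to 4.09), in 9 of 10 dendritic cell genes (5.81 to 5.90 against 4.97 to 5.02), in 4 of 7 T cell genes (4.62 to 4.71 against 4.27 to 4.43) and in 7 of 12 red pulp macrophage genes, of which 3 rose (7.31 to 7.40 against 6.79 to 6.87). Of 10 genes that mark the labelled myeloid cells, 7 rose and none fell, Itgam, which encodes CD11b, by 0.57 (SE 0.051), and all 10 were above the filter on dim genes. RMA values have no zero, so no marker can be called absent. In RNA of a mixed population, fewer cells of a type and less RNA in each cell cannot be told apart, and the part of these markers in the differences of the cholesterol genes was not tested. The difference of the 3' and 5' control probe sets of beta-actin, a measure of RNA integrity, ran from 0.405 to 0.529 in control pools and from 0.333 to 0.423 in threat animals. These ranges met only through threat animal 3 (0.423), which lay above control pool 1-2 (0.405). The ranges of Gapdh overlapped as well, with -0.079 to 0.022 in control and -0.172 to 0.036 in threat.

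The promoter letters of 8 called genes are shown because SREBP is known to act at a sterol response element together with the CCAAT-binding factor NF-Y and Sp1. Of the called members with a RefSeq promoter window (GRCm38.p6), the 4 that rose most and the 4 that fell most are given, and the letters are the 150 bases upstream of the start site. Capitals mark the sterol response core CACCCCAC and the CCAAT box, which reads ATTGG where it lies on the other strand. The windows are chrX:8193513-8193662 on the minus strand, chr19:6067851-6068000 on the minus strand, chrX:72918371-72918520 on the plus strand and chr13:119690201-119690350 on the plus strand for the genes that rose, and chr9:110333138-110333287 on the plus strand, chr13:45389592-45389741 on the plus strand, chr7:19699189-19699338 on the minus strand and chr13:14063489-14063638 on the minus strand for those that fell.
Ebp: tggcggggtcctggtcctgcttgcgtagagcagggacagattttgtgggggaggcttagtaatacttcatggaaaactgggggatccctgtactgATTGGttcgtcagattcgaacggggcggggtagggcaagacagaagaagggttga
Tm7sf2: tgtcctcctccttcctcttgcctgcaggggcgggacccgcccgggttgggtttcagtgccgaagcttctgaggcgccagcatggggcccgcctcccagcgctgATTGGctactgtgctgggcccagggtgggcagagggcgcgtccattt
Nsdhl: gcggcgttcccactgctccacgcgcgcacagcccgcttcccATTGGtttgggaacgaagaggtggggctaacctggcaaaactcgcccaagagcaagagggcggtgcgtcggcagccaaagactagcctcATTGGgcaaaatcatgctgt
Hmgcs1: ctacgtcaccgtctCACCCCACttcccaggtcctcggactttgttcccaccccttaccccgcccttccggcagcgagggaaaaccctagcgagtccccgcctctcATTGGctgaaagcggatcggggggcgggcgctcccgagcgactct
Scap: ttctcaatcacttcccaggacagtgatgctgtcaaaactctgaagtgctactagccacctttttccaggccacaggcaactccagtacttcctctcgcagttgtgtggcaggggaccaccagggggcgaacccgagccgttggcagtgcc
Mylip: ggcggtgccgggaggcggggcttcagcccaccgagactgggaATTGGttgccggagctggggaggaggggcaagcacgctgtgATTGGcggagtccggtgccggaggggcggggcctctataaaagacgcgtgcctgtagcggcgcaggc
Apoe: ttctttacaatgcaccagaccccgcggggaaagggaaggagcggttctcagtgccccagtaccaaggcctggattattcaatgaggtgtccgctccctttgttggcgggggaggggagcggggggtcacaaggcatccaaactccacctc
Ggps1: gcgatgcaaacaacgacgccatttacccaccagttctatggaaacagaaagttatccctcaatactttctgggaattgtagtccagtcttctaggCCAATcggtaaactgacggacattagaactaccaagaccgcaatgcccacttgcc

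Hmgcs1 was the only one of these 8 with the sterol response core, which begins 136 bases upstream of its start site. Of 28 members with a window, which runs from 250 bases before to 50 after the start, 2 held the core on either strand, Hmgcs1 and Acat2. Of 10531 tested genes with a window, 4.03% did. The 28 members include Acat2, Soat1 and Nr1h2, whose expression was not measured here. A CCAAT box was present in 15 of 16 synthesis genes with a window in 5 of 6 regulator and transport genes and in 2 of 6 LXR and efflux genes, against 41.8% of those 10531 genes. In the same order, the Sp1 box GGGCGG was found in 14 of 16, 6 of 6 and 3 of 6, and in 64.2% of the tested genes. The E-box CACGTG stood in 3 of 16, 2 of 6 and 1 of 6, and in 11.3%, and the hexamer AGGTCA, a unit of the repeat that LXR binds, in 2 of 16, 1 of 6 and 0 of 6, and in 15.7%. A gene with several windows counts once if any of them holds the letters, and both strands were read. In the printed stretches no motif overlaps another. A match is a run of letters, not a binding site, and no match says only that these letters are not in the window. Fdps, Fdft1, Sqle, Stard4 and Abcg1 had no window in the table.

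The first enzymes of the pathway rose at 3 of 5 measured steps and none fell. Of all genes tested, 23.8% rose and 22.0% fell. Hmgcs1, which makes HMG-CoA, was 8.64, 8.66 and 8.70 in the control pools and ran from 8.77 over a median of 9.07 to 9.29 in threat animals. All 6 threat values lay above the control values, threat animal 1 only just and threat animals 5 and 6 farthest. The difference was 0.42 (SE 0.095, adjusted p = 0.0031). It was 0.24 (adjusted p = 0.035) as the mean of the gene's probe sets and 0.20 (adjusted p = 0.0897) with a probe set without a suffix letter in its name.

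Pmvk and Mvd, which turn phosphorylated mevalonate into isopentenyl pyrophosphate, rose as well. Pmvk was 5.45, 5.52 and 5.57 in control and ran from 5.65 over 5.73 to 5.92 in threat animals, a difference of 0.24 (SE 0.063, adjusted p = 0.0069). Mvd was 5.04, 5.01 and 4.86 in control and ran from 5.23 over 5.26 to 5.45 in threat animals, a difference of 0.32 (SE 0.062, adjusted p = 9.1e-04). The groups did not overlap in either gene. The mevalonate kinase gene Mvk, with 4.62, 4.70 and 4.39 in control and 4.69 to 4.85 in threat, missed the threshold (difference 0.16, 95% interval 0.017 to 0.31, adjusted p = 0.0652). Leaving out control pool 3-4 gave 0.23 and a pass (adjusted p = 0.0206), as did quantile normalization at 0.20 (adjusted p = 0.0427). Without control pool 5-6 the difference was 0.075 (adjusted p = 0.354). Idi1, the isomerase of isopentenyl pyrophosphate, went the other way without passing (-0.16, interval -0.35 to 0.035, adjusted p = 0.170). Its threat values, 7.09 to 7.51, took in 2 of the 3 control values of 7.42, 7.55 and 7.47.

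The 2 prenyl pyrophosphate synthases moved in opposite directions. Fdps makes farnesyl pyrophosphate, from which both squalene and the longer prenyl groups are built. It was 6.50, 6.48 and 6.52 in control pools and ran from 6.74 over 6.80 to 6.94 in threat animals, a rise of 0.32 (SE 0.055, adjusted p = 3.9e-04) with no overlap. The rise was 0.21 (adjusted p = 0.0016) as the mean of its 2 probe sets, of which the other was dim (1.22) and under the filter. Ggps1 adds a further unit to make geranylgeranyl pyrophosphate, which anchors small GTPases in membranes. It was 5.92, 5.93 and 5.91 in control and ran from 5.46 over 5.57 to 5.63 in threat animals, so it fell by 0.36 (SE 0.049, adjusted p = 5.3e-05). Its groups lay far apart, and all 4 of its probe sets were lower in threat animals, of which 1 was not called (-0.13, adjusted p = 0.117 in a fit of all probe sets).

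**Figure D2:**
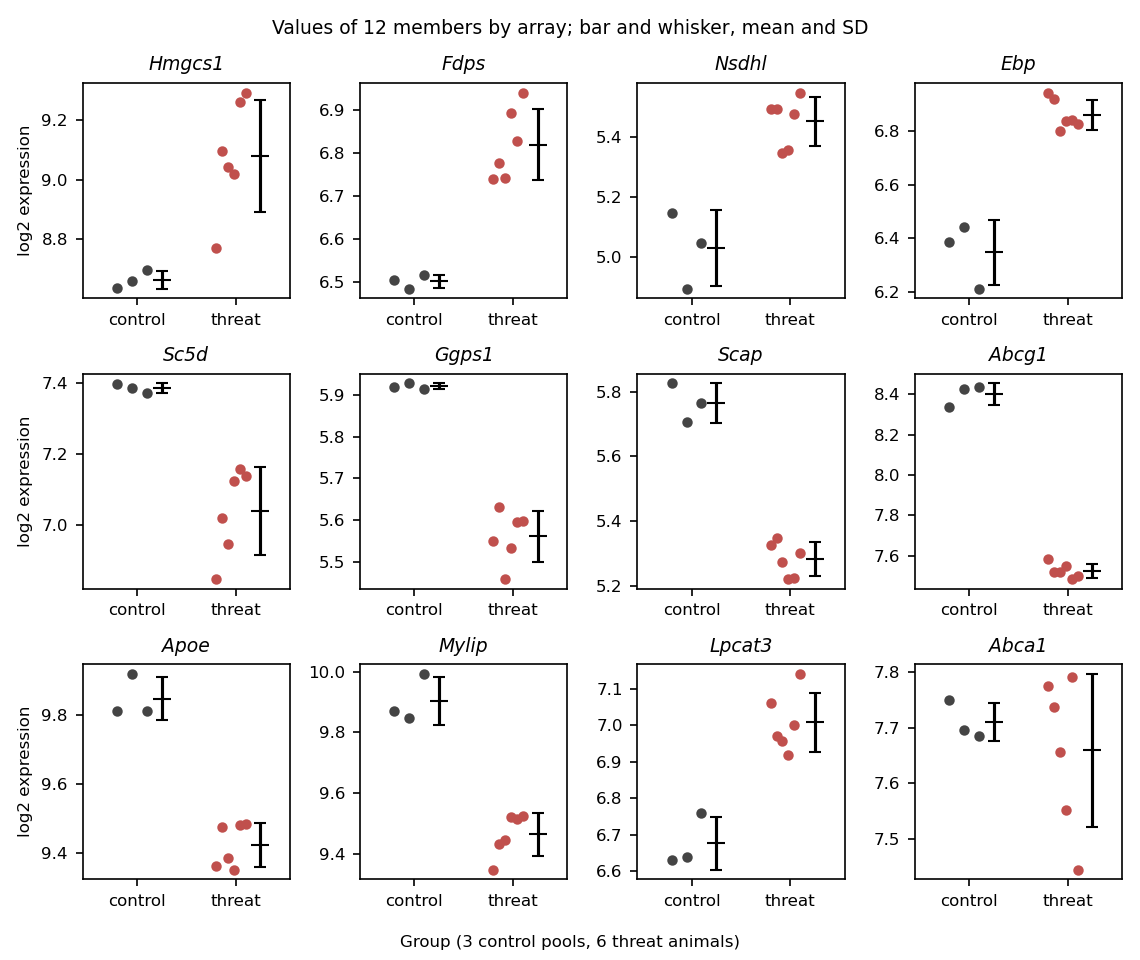
Log2 expression (y axis, a range of its own in each panel) of 12 genes in 3 control pools and 6 threat animals, with the mean and SD beside the points. The 12 genes were picked for display, most of them from the called genes. In 11 of the 12 panels the groups do not overlap, Abcg1 with the widest gap, and in Abca1 they do. Of all 30 measured genes 16 (53.3%) show no overlap, against 41.8% of all genes tested.

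Among the enzymes from squalene to cholesterol, 5 of 11 rose (45.5%) and 1 fell (9.1%), against 23.8% and 22.0% of all genes tested. Fdft1, the squalene synthase that commits farnesyl units to sterols, was 6.07, 6.23 and 6.07 in control and ran from 6.27 over 6.44 to 6.55 in threat animals. It rose by 0.30 (SE 0.064, adjusted p = 0.0018), and by 0.19 (adjusted p = 0.0044) as the mean of its probe sets. The 2 dimmest of these showed 0.15 and 0.073 and were not called in a fit of all probe sets. The next enzymes did not pass. Sqle, the squalene epoxidase, differed by -0.055 (interval -0.26 to 0.15, adjusted p = 0.671). The lanosterol synthase gene Lss differed by -0.17 (interval -0.34 to -0.0061, adjusted p = 0.0859). Lss passed without threat animal 3 (-0.21, adjusted p = 0.039) or 6 (-0.21, adjusted p = 0.0415), and its other probe set above the filter showed 0.060. The lanosterol demethylase Cyp51 differed by 0.12 (interval -0.067 to 0.30, adjusted p = 0.288).

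The enzymes that reshape lanosterol gave the largest rises. Ebp, the isomerase that shifts a double bond of the sterol ring, was 6.39, 6.44 and 6.21 in control pools and ran from 6.80 over 6.84 to 6.94 in threat animals. It rose by 0.51 (SE 0.059, adjusted p = 1.3e-05), a 1.43-fold difference and the largest rise of the 30 genes. Tm7sf2, a sterol reductase, was 3.97, 3.95 and 3.85 in control and ran from 4.11 over 4.38 to 4.64, a rise of 0.45 (SE 0.090, adjusted p = 0.0011). Both genes had no overlap between groups, with the closest values in threat animal 4 for Tm7sf2. Nsdhl removes the carboxyl group left from a ring methyl. It was 5.15, 4.90 and 5.05 in control and ran from 5.35 over 5.49 to 5.55 in threat animals, a rise of 0.42 (SE 0.066, adjusted p = 1.7e-04).

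The 2 partners of Nsdhl in removing methyl groups differed less. Msmo1, the methyl sterol oxidase, had a difference of 0.18 (SE 0.062, adjusted p = 0.0301) with overlapping groups, 7.21, 7.34 and 7.24 in control and 7.32 to 7.56 in threat. Its call was not stable. The difference was -0.015 (adjusted p = 0.899) as the mean of both probe sets, and the dimmer probe set alone gave -0.21 (adjusted p = 0.360 among suffix-free probe sets). Without control pool 1-2 (0.16, adjusted p = 0.114) or 5-6 (0.17, adjusted p = 0.0922), without threat animal 4 (0.18, adjusted p = 0.0502), 5 (0.16, adjusted p = 0.0554) or 6 (0.16, adjusted p = 0.0543), and with threat animals averaged by number (adjusted p = 0.0589), the adjusted p rose above the threshold. Hsd17b7, the ketosteroid reductase of the same complex, differed by 0.080 (interval -0.072 to 0.23, adjusted p = 0.383).

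Sc5d and Dhcr7 act near the end of the pathway. The desaturase gene Sc5d was 7.40, 7.39 and 7.37 in control pools and ran from 6.85 over 7.07 to 7.16 in threat animals. It fell by 0.35 (SE 0.069, adjusted p = 0.0012), with all threat values below the control values and threat animal 1 the lowest. Its 2 dimmer probe sets gave -0.11 and -0.14 and were not called in a fit of all probe sets. The mean of all 3 gave -0.20 (adjusted p = 0.0039). Dhcr7, the reductase of the last step, was dim, 3.07 to 3.13 in control and 2.69 to 3.41 in threat animals, with a filter value of 2.66. Its difference was -0.051 (interval -0.33 to 0.22, adjusted p = 0.777).

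Transcripts of the SREBP factors themselves did not pass. Srebf1, whose main product acts more on fatty acid genes, differed by -0.077 (interval -0.19 to 0.040, adjusted p = 0.272), and Srebf2, whose product acts mainly on cholesterol genes, by -0.075 (interval -0.18 to 0.032, adjusted p = 0.242). Array values say nothing of how much factor was cleaved. Scap was 5.83, 5.71 and 5.76 in control and ran from 5.22 over 5.29 to 5.35 in threat animals, so it fell by 0.48 (SE 0.049, adjusted p = 4.9e-06), the second largest fall of the 30 genes. A second probe set of Scap (mean 2.66) lay just under the filter, and the mean of both fell by 0.28 (adjusted p = 0.0012). Insig1, which is itself switched on by SREBP in many cells, differed by -0.056 (interval -0.18 to 0.068, adjusted p = 0.456).

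Insig2 and Stard4 complete the handling of sterol inside the cell. Insig2 was 5.78, 5.65 and 5.51 in control and 5.78 to 5.83 in threat animals, a difference of 0.17 (SE 0.057, adjusted p = 0.0314) in which the control pools varied more than the threat animals. The call was lost without control pool 5-6 (0.096, adjusted p = 0.168) or 3-4 (0.17, adjusted p = 0.0721), without threat animal 1 (0.16, adjusted p = 0.0518), 4 (0.16, adjusted p = 0.0521) or 5 (0.16, adjusted p = 0.0522), with array weights (0.12, adjusted p = 0.0800) and with threat animals averaged by number (adjusted p = 0.0973). Stard4, a soluble carrier of cholesterol between membranes, was 5.85, 5.79 and 5.94 in control and ran from 6.04 over 6.10 to 6.31 in threat animals. It rose by 0.29 (SE 0.071, adjusted p = 0.0047) with no overlap, and its 2 other probe sets rose by 0.27 and 0.23.

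Of 6 measured genes of LXR and efflux, 3 fell (50%), 1 rose (16.7%) and 2 did not pass. In all genes tested, 22.0% fell and 23.8% rose. Abcg1, which exports cholesterol to high-density lipoprotein, was 8.34, 8.43 and 8.44 in control pools and ran from 7.48 over 7.52 to 7.58 in threat animals. The gap between the groups was many times their spread, 0.055 in control and 0.036 in threat animals (SD), and the fall of 0.87 had an adjusted p = 1.4e-08 (-0.87, interval -0.97 to -0.77). The second probe set of Abcg1 fell by 0.68. Abca1, the exporter to lipid-poor apolipoprotein, did not share this. Its control values were 7.75, 7.70 and 7.69, its threat values ran from 7.44 over 7.70 to 7.79, and the difference was -0.051 (interval -0.21 to 0.11, adjusted p = 0.617). The 2 confidence intervals do not meet.

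Apoe, the apolipoprotein that macrophages secrete with exported cholesterol, was 9.81, 9.92 and 9.81 in control and ran from 9.35 over 9.43 to 9.48 in threat animals. It fell by 0.42 (SE 0.052, adjusted p = 2.5e-05). Mylip, the ligase that sends lipoprotein receptors to degradation, was 9.87, 9.85 and 9.99 in control and ran from 9.35 over 9.48 to 9.53, a fall of 0.44 (SE 0.056, adjusted p = 3.3e-05). Neither gene had overlapping groups. Lpcat3, which places polyunsaturated fatty acids into phospholipids and is also an LXR target, went the other way. Its values were 6.63, 6.64 and 6.76 in control and 6.92 over 6.99 to 7.14 in threat animals, a rise of 0.33 (SE 0.058, adjusted p = 4.4e-04). The receptor gene Nr1h3, which encodes LXR alpha, differed by 0.12 (interval -0.037 to 0.27, adjusted p = 0.203). In the same arrays 7 of 12 red pulp macrophage genes fell and 3 rose, and 10 of 11 B cell genes fell, as given above. Of 10 genes of the labelled myeloid cells, 7 rose and none fell. Of all genes tested, 23.8% rose and 22.0% fell. The part of these markers in the differences of the LXR and efflux genes was not tested.

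**Figure D3:**
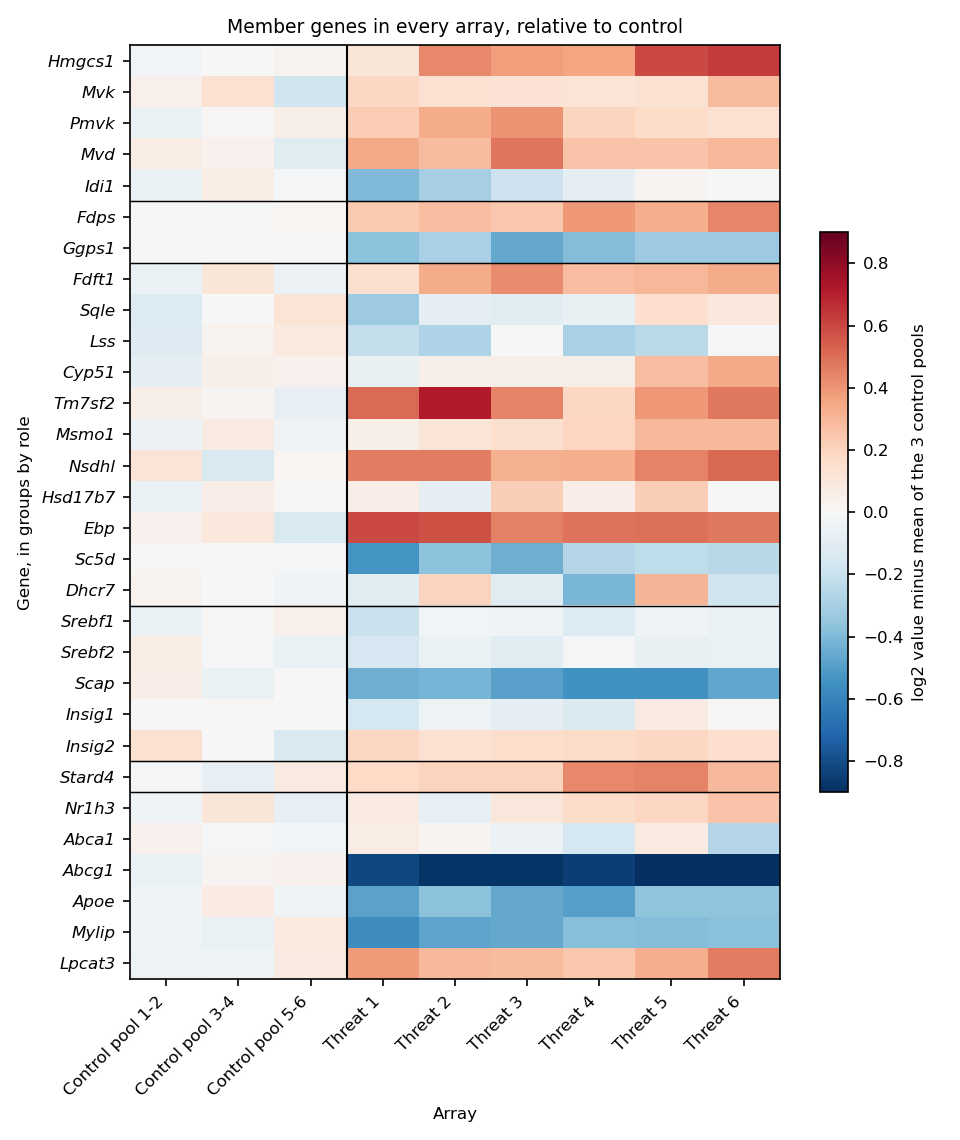
Log2 value of each measured gene (rows, grouped by role as in the list) in each of the 9 arrays (columns), minus the mean of the 3 control pools, on a colour scale from blue (lower) to red (higher). Ebp, Nsdhl, Scap, Abcg1, Apoe and Mylip show one colour in all 6 threat animals, whereas Idi1, Sqle and Cyp51 are lower in threat animal 1 than in threat animals 5 and 6.

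Synthesis enzymes and the LXR and efflux genes can be set side by side as means per array. The mean of the 18 enzymes was 5.82, 5.86 and 5.82 in control pools and ran from 5.88 over 5.97 to 6.03 in threat animals, a difference of 0.13. The mean of the 6 LXR and efflux genes was 7.99, 8.03 and 8.03 in control and ran from 7.77 over 7.78 to 7.84 in threat animals, a difference of -0.22. The synthesis mean minus the LXR and efflux mean was therefore 0.36 higher in threat animals. Its SD was 0.024 between control pools and 0.048 between threat animals. A control array pools 2 animals and a threat array holds 1, so these SDs are not like measures of the spread between animals. The group means are given without a test because the genes were listed with results of these arrays known. The median difference was 0.17 for the enzymes and -0.24 for the LXR and efflux group. Abcg1 had by far the largest difference of that group (-0.87), while Abca1 differed by -0.051. Neither group moved as one, since Ggps1 and Sc5d fell among enzymes and Lpcat3 rose among LXR genes.

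Threat animals varied among themselves in the enzymes of synthesis. Threat animal 1 had the lowest value of the 6 in 8 of 18 enzymes, among them Hmgcs1, Idi1, Fdps, Sqle, Cyp51 and Msmo1. Threat animals 5 and 6 had the highest value in 5 and 6 enzymes. The enzyme mean was 5.88 in threat animal 1 and 6.03 in each of threat animals 5 and 6. Between threat animal 1 and threat animals 5 and 6, granulocyte markers ran the other way, with means of 10.40, 9.96 and 9.99. So did cell cycle genes, with 6.25, 5.57 and 5.60. Threat animal 4 had a low enzyme mean (5.91) and a granulocyte mean of 10.22. Threat animals 2 and 3 were higher in both, with enzyme means of 5.97 and 5.96 and granulocyte means of 10.32 and 10.26. B cell markers were also highest in threat animal 1 (5.09) and low in threat animals 5 and 6 (4.72 and 4.70). The part of these cell markers in the spread of the enzymes was not tested. Pmvk, Mvd, Tm7sf2 and Ebp, all called rises, were higher in threat animal 1 than in threat animals 5 and 6, and Ebp was highest in threat animal 1.

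**Figure D4:**
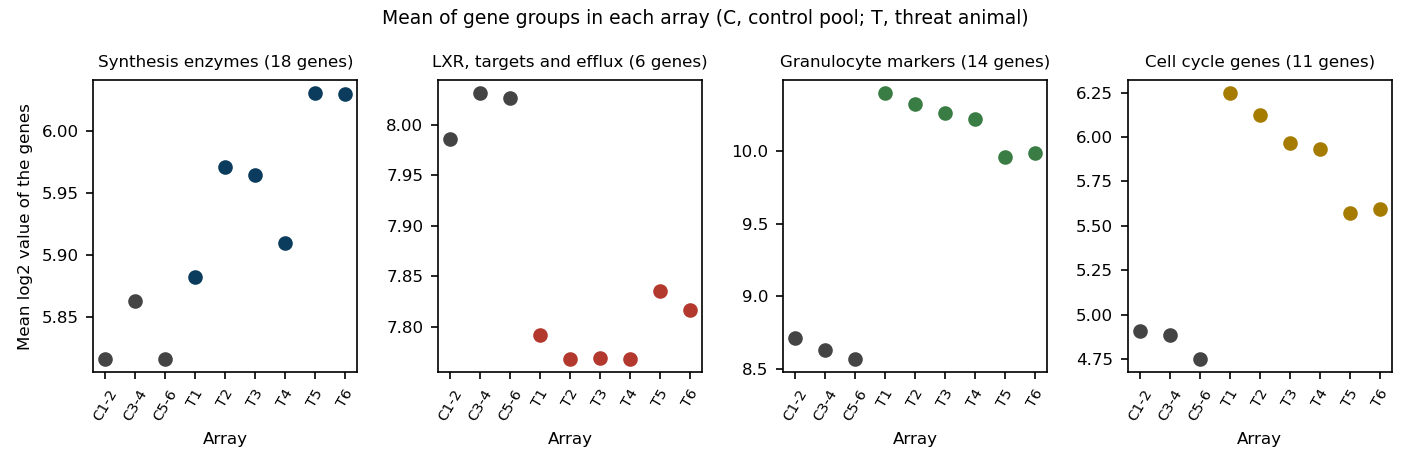
Mean log2 value (y axis, a range of its own in each panel) of the synthesis enzymes, the LXR and efflux genes, the granulocyte markers and the cell cycle genes in each array, control pools in dark grey and threat animals in colour. The synthesis mean is 5.88 in threat animal 1 and 6.03 in threat animals 5 and 6, while the granulocyte mean is 10.40 in threat animal 1 and 9.96 and 9.99 in those.

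The probe sets of a gene mostly pointed the same way. The 30 genes had 63 probe sets, and 18 genes had more than 1. Of 29 further probe sets above the filter, 25 had the sign of the one used and 4 the opposite sign, those of Lss, Cyp51, Msmo1 and Abca1. Of the 19 that belong to called genes, 18 had the same sign and 9 were also called. Single probe sets were called in a separate fit of all 34945 probe sets that name 1 gene, without the filter. In that fit the probe sets used for Msmo1 (adjusted p = 0.0539) and Insig2 (adjusted p = 0.0568) were not called either.

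**Figure D5:**
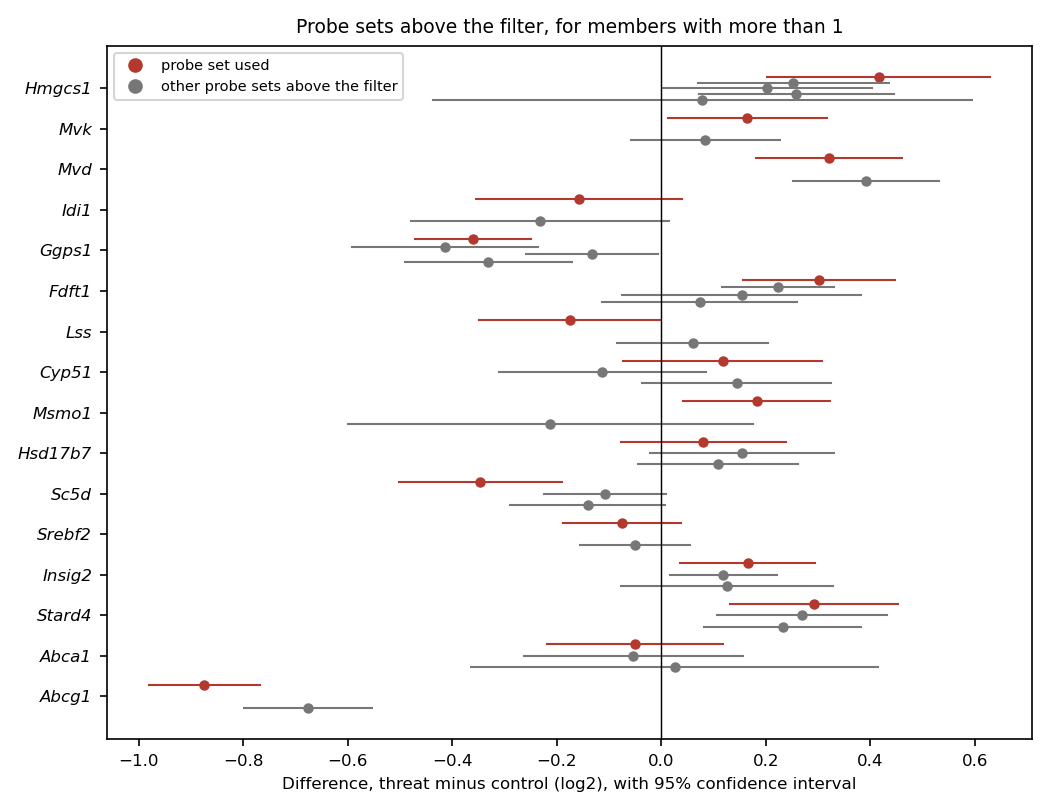
Difference between threat animals and control pools (log2, x axis) with its 95% confidence interval for every probe set above the filter, in genes with more than 1. Red marks the probe set used and grey the others. Both probe sets of Abcg1 lie well below 0, and those of Lss, Cyp51, Msmo1 and Abca1 fall on both sides.

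Neighbouring parts of the pathway were followed in 5 further lists of 52 genes, of which 44 were tested, 12 rose and 12 fell (27.3% each, near the 23.8% and 22.0% of all genes). Lipoprotein uptake and lysosomal handling changed in 9 of 10 tested genes, 6 higher and 3 lower. The high-density lipoprotein receptor Scarb1 rose by 0.65 (SE 0.065, adjusted p = 4.0e-06). A rise of 0.35 was found in Stard3, a sterol carrier of late endosomes (SE 0.043, adjusted p = 2.0e-05). Npc1, the membrane protein that lets cholesterol leave lysosomes, fell by 0.62 (SE 0.067, adjusted p = 8.8e-06). Its soluble partner Npc2 differed by -0.13 (adjusted p = 0.0568), a value that passed under 7 of the alternatives, for instance without control pool 5-6 (-0.18, adjusted p = 0.0161).

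In the list of SREBP cleavage and sterol-regulated degradation, 1 of 8 rose (12.5%), 2 fell (25%) and 5 did not pass. Among all genes tested, 23.8% rose and 22.0% fell. Fbxw7, the ubiquitin ligase subunit that removes active SREBP, fell by 0.80 (SE 0.054, adjusted p = 1.1e-07). Mbtps1, the protease that makes the first cut in SREBP, fell by 0.25 (SE 0.042, adjusted p = 3.8e-04), but the mean of its probe sets gave -0.072 (adjusted p = 0.394). Rnf145, a sterol-responsive ubiquitin ligase that LXR induces, rose by 0.37 (SE 0.052, adjusted p = 8.9e-05).

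Of 11 tested LXR partners and further targets, 4 rose (36.4%), 3 fell (27.3%) and 4 did not pass. The shares of all genes tested were 23.8% and 22.0%. The apolipoprotein gene Apoc2, a neighbour of Apoe in the genome, rose by 0.84 (SE 0.074, adjusted p = 1.4e-06), from 7.20 ± 0.17 (SD, n = 3) to 8.03 ± 0.083 (SD, n = 6), while Apoe fell. Smpdl3a, a phosphodiesterase that LXR induces, rose by 0.39 (SE 0.057, adjusted p = 1.0e-04). The phospholipid transfer protein gene Pltp fell by 0.45 (SE 0.066, adjusted p = 1.0e-04), which was -0.13 (adjusted p = 0.195) with a suffix-free probe set.

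Users of the prenyl and dolichol branch mostly did not pass, with 1 rise (9.1%) and 2 falls (18.2%) in 11. Rises and falls made up 23.8% and 22.0% of all genes tested. Dhdds, which extends farnesyl pyrophosphate to the dolichol chain, rose by 0.67 (SE 0.054, adjusted p = 6.0e-07), although a suffix-free probe set gave 0.24 (adjusted p = 0.0501), and its partner Nus1 differed by 0.0080 (adjusted p = 0.906). The geranylgeranyl transferase subunit Rabggta fell by 0.16 (SE 0.051, adjusted p = 0.0196). Its partner Rabggtb fell by 0.23 (SE 0.085, adjusted p = 0.041). Rabggta lost its call after quantile normalization (adjusted p = 0.0538). It also did so when control pool 1-2 was left out (-0.13, adjusted p = 0.098). The call of Rabggtb was lost under 10 alternatives, with an adjusted p up to 0.183 without control pool 5-6 (-0.17).

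Oxysterol genes were the list with the largest single difference. The receptor gene Gpr183, through which oxysterols guide B cells and dendritic cells in the spleen, fell by 1.37 (SE 0.051, adjusted p = 1.0e-09), from 7.49 ± 0.056 (SD, n = 3) to 6.13 ± 0.061 (SD, n = 6). Cyp27a1, which makes the LXR ligand 27-hydroxycholesterol, fell by 0.78 (SE 0.047, adjusted p = 4.6e-08), and by 0.35 (adjusted p = 1.0e-04) as the mean of its probe sets. Ch25h, another hydroxylase that makes an oxysterol, differed by -0.045 (interval -0.18 to 0.094, adjusted p = 0.606). B cell markers fell in 10 of 11 tested genes and dendritic cell markers in 9 of 10 in the same arrays, and their part in the fall of Gpr183 was not tested.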

How the data were processed

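The deposited values are log2 expression values of 45101 probe sets in 9 arrays, made by the authors with RMA, per the submitters' processing notes. No source used here gives its version or options, and base 2 was inferred from the range of 0.607 to 13.567. Array medians ran from 3.19 to 3.22. Gene names came from the platform annotation, updated by Entrez number through RefSeq (GRCm38.p6, names only). Each gene took its probe set with the highest mean over all arrays, and genes under the 40th percentile of that mean over probe sets that are not controls (2.66) were left out.

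Threat minus control was fitted over all 13078 genes with limma 3.58.1 in R 4.3.3 (lmFit, eBayes, equal weights, two-sided), with Benjamini-Hochberg adjustment over all of them and a threshold of 0.05. SE and 95% intervals are limma's. Each control array is a pool of 2 animals, and the number of arrays limits the precision. Tested on simulated data drawn for the 13078 genes, the fit recovered 34% of 50 genes changed by 0.25 (log2), 90% at 0.5 and 100% at 1 and at 2, with 10 false calls. In the simulation 12878 genes were unchanged, whereas 23.8% of genes rose and 22.0% fell in the data. The adjusted p depends on how many genes differ, so these shares do not give the recovery in the data.

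All members are named. For each further pathway list the text names the brightest gene and the 3 of smallest p, and marker lists are given by counts. The members and lists were chosen with earlier results of these data known. Alternatives were other filters, probe set rules, normalizations, weights and variance models, averaging or blocking by animal number, and leaving out each array. Other genes of the pathway outside the lists were not analysed here.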

Additional observations from a re-analysis of the deposited data

How the results depend on the processing

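Over 20 alternatives, 575 of 599 values of the 30 genes kept their direction and their side of the threshold, 14 lost the call, 4 gained it and 6 changed sign. Of the 18 called genes, 15 were called under all 20, and the exceptions were Hmgcs1, Msmo1 and Insig2. Single other probe sets gave 29 further values, with calls from the separate fit of all probe sets that name 1 gene. Of these, 16 kept both direction and side of the threshold and 4 changed sign. The other 9 lost the call, in Hmgcs1, Ggps1, Fdft1, Sc5d and Insig2. Across the 20 alternatives 10 to 13 of the 30 genes rose and 6 to 7 fell, the synthesis mean differed by 0.11 to 0.16 and the LXR and efflux mean by -0.24 to -0.20. Probe set choice changed signs. Lss was 0.060 and Msmo1 -0.21 with suffix-free probe sets and with their other probe set, Cyp51 -0.11 and Abca1 0.026 on 1 of their other probe sets, and Msmo1 -0.015 as a mean of probe sets. Leaving out 1 array moved Sqle between -0.12 and 0.0065, Dhcr7 between -0.12 and 0.022 and Nus1 between -0.018 and 0.031. Nus1 was also -0.052 as a mean of probe sets, -0.009 with a suffix-free probe set and -0.011 with array weights. Of the genes that changed sign, Msmo1 alone was called, and the cause was not tested. Between control pools and threat animals with the same numbers, deviations from the group mean correlated at 0.15, -0.15 and -0.029. With different numbers they correlated at -0.11 to 0.16. With so few arrays these values cannot decide whether the numbers link arrays. A replicate block by number left 12 higher and 6 lower genes.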
